A study of Capra hircus with 6 samples.

Results

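Gene deserts are long stretches of a chromosome without protein-coding genes. In dairy goat mammary epithelial cells, 2103 of 30714 regions in the authors' deposited table of differing chromatin accessibility lay in such deserts. A region was counted when its centre was outside every protein-coding gene and more than 100 kb from every protein-coding gene end, on the 29 numbered chromosomes. Position alone chose these regions. No filter on fold change or p-value was added, although every region of the table had already passed the authors' listing at a p under 0.001. The numbered chromosomes held 29978 listed regions. Chromatin was measured by ATAC-seq, in which a transposase inserts sequencing adapters where DNA is free of nucleosomes.

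The cells came from the mammary gland of *Capra hircus*. The dry period, between lactations, gave 3 libraries (replicates 1, 2 and 3), and the lactation period gave 3 (replicates 1, 2 and 5). No age, breed or treatment beyond the period was used here, and no label tells if separate goats gave the libraries of a period. The table gives a fold change, a p-value and a false discovery rate (FDR) per region for the whole comparison. It holds no value per library, so the depth and the spread between libraries are unknown. Whether the p-values reflect variation between libraries is also unknown. Any such variation is that of these libraries alone and could be technical. All 30714 fold changes are above 1 and the regions carry names in 2 sets (22884 in set 1 and 7830 in set 2). A set is read here as the regions that were more open in 1 of the periods. Neither the table nor the labels say which set is the dry period, so directions are given by set. Whether marker genes of the labelled cell type were open cannot be read from a list of differing regions.

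Deserts are known for distal enhancers, stretches of DNA that bind transcription factors and act on a promoter far away through a loop of chromatin. Genes that direct development, such as *SOX9*, *MYC*, *GATA3* and *TBX3*, often stand alone beside a desert that holds many of their enhancers. A region in a desert is named here by the 2 protein-coding genes that bound the desert, written from the left to the right of the chromosome. These names give neighbours, and no target gene was measured.

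Set 2 made up a larger part of the listed regions in deserts than elsewhere. Of the 2103 desert regions, 1141 were in set 1 and 962 in set 2, so set 2 took 45.7% (43.6% to 47.9%; 95% Wilson, as are the later intervals, which reflect counting error alone). All other listed regions on the numbered chromosomes had a set 2 share of 24.0% (23.5% to 24.5%). At an FDR under 0.05 there were 528 desert regions, 25.1% of those listed, against 27.8% of all listed regions. They were 423 of the set 1 regions (37.1%, against 34.2% of all listed set 1 regions) and 105 of the set 2 regions (10.9%, against 9.24%). The share that passed the FDR was thus close to that of all listed regions in each set. The set 2 share at this FDR was 19.9% (16.7% to 23.5%) in deserts and 7.73% in all other regions. The FDR limit corresponds to an unequal p in the sets (6.21e-05 in set 1 and 5.63e-06 in set 2). At the listing limit the FDR reached 0.270 in set 1 and 0.858 in set 2. Counts of listed regions, here and below, thus compare sets of unequal reliability. With p under 1e-05 in both sets, 392 desert regions remained, 18.6% of those listed, against 17% of all listed regions, and their set 2 share was 34.4% (29.9% to 39.3%), against 15.9% for the others. Regions of 1 table are not replicates of animals, and the shares are descriptions with no test.

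Distance from genes went with the set makeup in steps. Outside genes the set 2 share was 12.6% within 3 kb of a gene end, 17.2% at 3 to 10 kb, 27.4% at 10 to 50 kb and 35.6% at 50 to 100 kb. Past the desert limit it was 44.5% of 1097 regions at 100 to 200 kb, 47.7% of 805 regions at 200 to 500 kb and 44.8% of 201 regions beyond 500 kb. The 3 desert intervals overlap each other. Those of the first 2 (41.6% to 47.4% and 44.3% to 51.2%) lie above that of 50 to 100 kb (33.2% to 38.1%), while the last (38.1% to 51.7%) begins where it ends. With p under 1e-05 the set 2 share in the 3 desert classes was 31.0% of 210, 34.5% of 142 and 52.5% of 40 regions. At an FDR under 0.05 it was 18.7% of 278, 17.9% of 201 and 34.7% of 49. At both limits it was thus highest beyond 500 kb, on few regions, so the level share holds for the listing limit alone. Inside genes, the share of all listed regions also went from 9.60% within 3 kb of a gene end to 41.6% at 50 to 100 kb. The 1205 regions inside a gene and over 100 kb from every gene end had a share of 50.8% (48.0% to 53.6%), so a high set 2 share was not seen in deserts alone. Nothing changed abruptly at the limit: the share was 41.7% of 199 regions at 90 to 100 kb and 42.2% of 173 regions at 100 to 110 kb. The nearest region outside the limit lay in set 2 between *MSX2* and *FAM169A* with a fold of 5.97 by the authors' deposited table. The nearest inside it lay in set 1 between *SLC28A3* and *NTRK2* with a fold of 4.41 by the authors' deposited table.

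**Figure D1:**
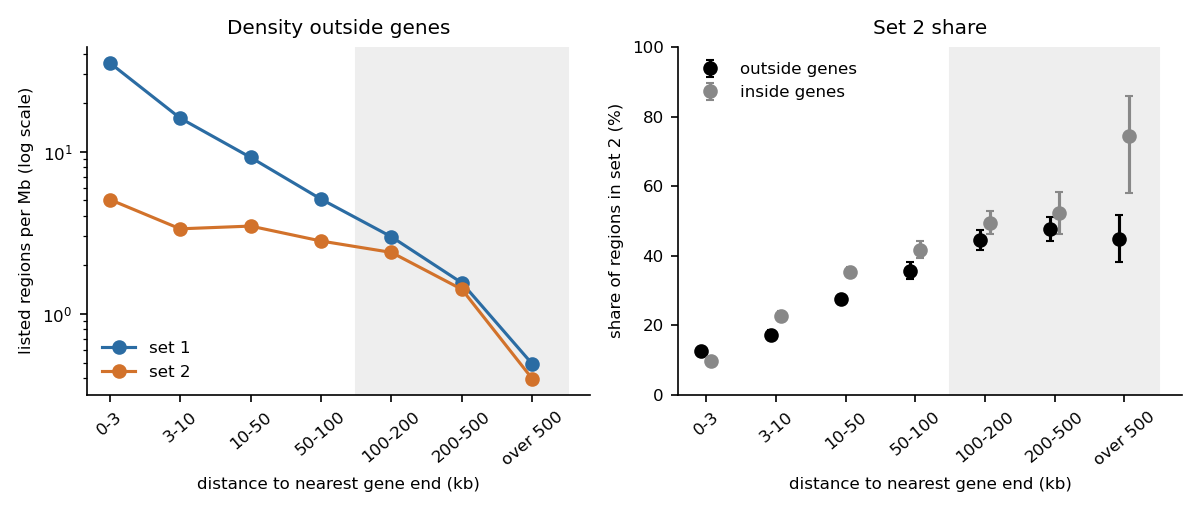
Left, listed regions per Mb of sequence outside genes (log axis) against the distance to the nearest protein-coding gene end (kb), for set 1 (blue) and set 2 (orange). Right, the set 2 share (%) of all listed regions with 95% Wilson intervals outside genes (black) and inside genes (grey). The shaded intervals are past the 100 kb limit, where the share outside genes lies between 44.5% and 47.7% at the listing limit.

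Both sets were sparser in deserts than elsewhere, and set 1 more so. Deserts over 100 kb from a gene end took up 703 Mb, 28.6% of the sequence between the outermost genes of the chromosomes, and held 7.02% of the listed regions. There were 1.62 set 1 and 1.37 set 2 regions per Mb in deserts. The rest of the chromosomes held 12.1 set 1 and 3.82 set 2 regions per Mb, 7.43 times the desert density in set 1 and 2.79 times in set 2. Set 1 density was 35.2 per Mb within 3 kb outside a gene end, 5.09 at 50 to 100 kb, 2.98 at 100 to 200 kb and 0.490 beyond 500 kb. Set 2 density was 5.06, 2.81, 2.39 and 0.397 per Mb at the same distances.

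Fold changes were larger in deserts than elsewhere within each set. The median fold change by the authors' deposited table was 2.79 for set 1 desert regions (interquartile range 2.11 to 3.83) and 2.37 for all other set 1 regions (1.86 to 3.2). For set 2 the authors' deposited table gave a median of 4.11 in deserts (3.00 to 5.51) and 3.53 elsewhere (2.62 to 4.90). Within 3 kb of a gene end the medians by the authors' deposited table were 2.18 and 2.78. Regions deep inside genes were close to desert regions, at 2.71 in set 1 and 4.01 in set 2 by the authors' deposited table. With p under 1e-05 in both sets the medians of desert regions by the authors' deposited table were 2.74 and 3.70, against 2.28 and 3.49 elsewhere. Read counts per region are unknown, so whether this difference goes with depth was not tested. The median width was 300 bp in both sets of desert regions and 300 bp in set 1 and 200 bp in set 2 elsewhere. The narrowest width listed, 200 bp, was that of 41.7% of set 1 and 47.6% of set 2 desert regions, and 37 set 1 and 11 set 2 regions reached 800 bp.

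**Figure D2:**
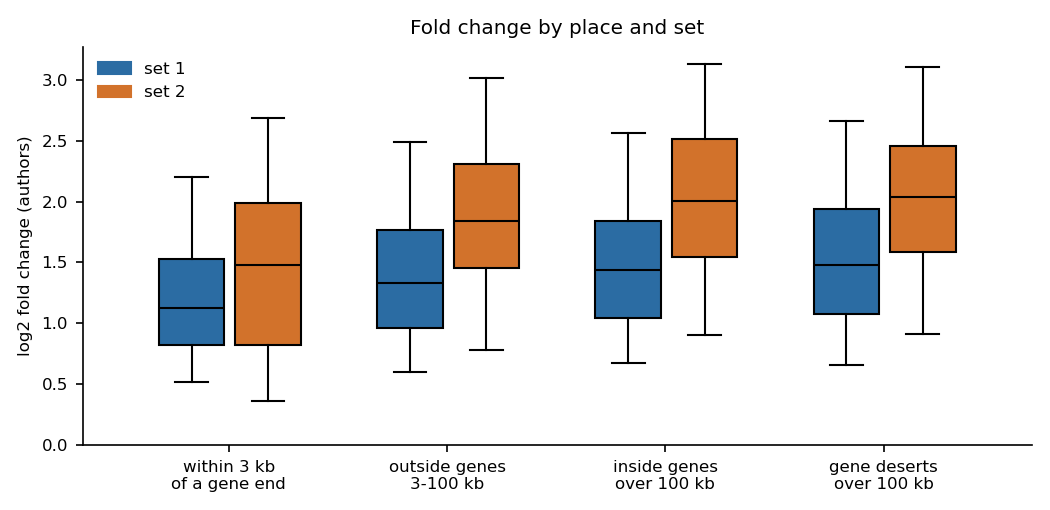
Log2 of the authors' fold change for set 1 (blue) and set 2 (orange) regions within 3 kb of a gene end, 3 to 100 kb outside genes, over 100 kb from gene ends inside genes, and in gene deserts. Boxes span the quartiles with the median as a line and whiskers the 5th to 95th percentile; the boxes of desert regions and of regions deep inside genes sit at similar heights, with medians of 2.79 and 2.71 in set 1 and 4.11 and 4.01 in set 2 on the linear scale.

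Of the 5 set 1 desert regions with the lowest p-values, each lay in another desert. In the authors' deposited table the lowest was a 700 bp region between *MAN2A1*, a mannosidase of N-glycan processing, and *PJA2*, a ubiquitin ligase, on chromosome 7 at 2015601 to 2016300, 133 kb from the nearer gene, with a fold of 4.81 (p = 1.4e-22, FDR = 1.04e-16). A region of chromosome 3 at 101599601 to 101600400, between 2 genes without a symbol, had a fold of 2.86 by the authors' deposited table (FDR = 3.87e-13) and lies in an array of tRNA genes. On chromosome 11 at 79362101 to 79362700, 221 kb from *OSR1*, a zinc finger factor of kidney and limb development, the authors' deposited table gave a fold of 2.62 (FDR = 3e-10). The region between *TBX3*, a T-box factor required to form the mammary bud, and *MED13L*, a subunit of the Mediator complex, on chromosome 17 at 12146901 to 12147600 had a fold of 3.38 by the authors' deposited table (FDR = 1.3e-09). It lies 1076 kb from *TBX3* and 159 kb from *MED13L*. Between *PTGER4*, a receptor for prostaglandin E2, and *DAB2*, an endocytic adaptor, a region on chromosome 20 at 34637301 to 34638100 also had 3.38 by the authors' deposited table (FDR = 2.3e-09).

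In set 2 the lowest p-value was found beside *HAS2*, the enzyme that makes hyaluronan. This 900 bp region on chromosome 14 at 64646901 to 64647800 lies 672 kb from *HAS2* and 426 kb from *ZHX2*, a transcriptional repressor, and had a fold of 4.53 by the authors' deposited table (p = 3.17e-20, FDR = 5.96e-14). Next was a region between *COG6*, of a Golgi tethering complex, and *FOXO1*, a forkhead factor under insulin control, on chromosome 12 at 64269401 to 64270100. Its fold change was 4.19 by the authors' deposited table (FDR = 4.08e-09), and it lies inside the long noncoding RNA gene *LOC102169973*. Regions between *PLOD2*, a lysyl hydroxylase of collagen, and *C1H3orf58* (chromosome 1, 124259501 to 124260200) and between *TNS1*, a focal adhesion protein, and *TNP1*, a spermatid protein (chromosome 2, 30362701 to 30363300), had fold changes of 4.83 and 5.07 by the authors' deposited table. The fifth lies between *TFCP2L1* and *GLI2*, a factor of Hedgehog signalling, on chromosome 2 at 63277101 to 63277700, only 102 kb from *GLI2*, with a fold of 2.29 by the authors' deposited table (FDR = 3.15e-05).

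The largest fold changes at an FDR under 0.05 belonged to other deserts. In set 1 the authors' deposited table gave 18.2 between *STXBP6* and *NOVA1*, a neuronal splicing factor (chromosome 21, 34907201 to 34907600, FDR = 0.0406). Between *C3H1orf87* and *NFIA*, a nuclear factor I gene, it was 16.1 by the authors' deposited table (chromosome 3, 35514701 to 35515300, FDR = 3.12e-05). Between *IKZF2*, a lymphoid zinc finger factor, and *ERBB4*, a neuregulin receptor with a role in lactation, it was 10.5 by the authors' deposited table (chromosome 2, 35015601 to 35016400, FDR = 0.00605). This last desert held 4 regions, all in set 1, of which 3 passed the FDR. Those beside genes without a symbol on chromosomes 10 and 11 had 10.1 and 10.5 by the authors' deposited table.

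For set 2 the largest was 22.4 by the authors' deposited table, between *COL22A1*, a collagen of tissue junctions, and the potassium channel gene *KCNK9* (chromosome 14, 78212301 to 78212900, FDR = 0.00568). The other 4 lay between 8.73 and 9.22 by the authors' deposited table. They were beside *GORAB*, a Golgi protein, beside *ZEB1*, a repressor of epithelial genes, beside *BARX2*, a homeobox factor, and between *RPL10L* and *EPB42*. The *ZEB1* region (chromosome 13, 32986701 to 32987200) had 9.15 by the authors' deposited table (FDR = 0.0181) and lies 102 kb from *ARHGAP12* and 137 kb from *ZEB1*.

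The most remote regions lay more than a megabase from any protein-coding gene. In set 1 the farthest was 2137 kb from *AGA*, a lysosomal enzyme, on chromosome 27 at 34700901 to 34701600, with a fold of 2.73 by the authors' deposited table (FDR = 0.00486). One between *EFNA5*, an ephrin, and *NUDT12* was 1724 kb from a gene end, with 5.74 by the authors' deposited table (FDR = 0.0711). The third lay 1594 kb from a gene end in the desert before *ACVR2A*, an activin receptor, with 4.36 (FDR = 0.00189 by the authors' deposited table). In set 2 the farthest lay 1554 kb from *GBE1*, the glycogen branching enzyme, in the desert that ends at *CADM2*, with 6.35 by the authors' deposited table and an FDR of 0.534. Those in the *GATA3* desert (1143 kb) and before *ACVR2A* (1132 kb) also missed the FDR limit. The median distance was 189 kb in set 1 and 198 kb in set 2.

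Desert regions lay in a minority of deserts. Of 1419 gaps of more than 200 kb between protein-coding genes, 665 (46.9%) held at least 1 listed region past the limit and 754 held 0. The 754 were smaller, with a median gap of 330 kb, and small gaps leave little sequence past the limit. The 429 gaps of 200 to 300 kb have 18.9 Mb past it, and 100 of them held a region. The count of empty deserts thus depends in part on their size. There were 240 deserts with 1 region, 269 with 2 to 4, 130 with 5 to 9 and 26 with 10 or more. Those 26 deserts, 1.83% of all, held 339 regions, 16.1% of the total. They were also large, with a median gap of 1014 kb against 436 kb for all deserts, so their share of desert sequence is above 1.83%. Larger deserts held fewer regions for their size. Gaps of 200 to 300 kb held 9.70 regions per Mb past the limit, those of 500 to 1000 kb 3.90 and those over 2000 kb 0.824. The set 2 share was 34.4% in the first class and 41.5% to 48.5% in the larger ones. Larger gaps also hold more sequence far from genes, where density was lower as given above. Gap size and distance from genes were not told apart.

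The deserts with the most set 1 regions flank *MYC*, *PLK2* and *IGFBP3*. The desert from *MYC*, the growth and cell cycle factor, to *GSDMC*, a pore-forming gasdermin, held 26 regions, 19 in set 1 and 7 in set 2, of which 9 passed the FDR. The region with the lowest p there lies 721 kb from *MYC* on chromosome 14 at 70063101 to 70063900, with a fold of 2.34 by the authors' deposited table (FDR = 0.000101). Its 19 set 1 regions all lie within 791 kb of *MYC*, while the 7 set 2 regions lie 465 to 1647 kb away. All 7 set 2 regions missed the FDR limit (0.183 to 0.829 by the authors' deposited table), so the 9 that passed are in set 1. The placing of set 2 there thus rests on regions that pass only the listing limit. The desert on the other side of *MYC* held 13 more regions, 8 in set 1 and 5 in set 2, so that 39 regions stood in the deserts around this gene.

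Between *PLK2*, a kinase of the stress response, and *ACTBL2*, an actin-like gene, there were 23 regions, 19 in set 1. The best of these, on chromosome 20 at 21515901 to 21516300, had a fold of 2.97 by the authors' deposited table (FDR = 0.00289). Between *IGFBP3*, which binds insulin-like growth factors, and *TNS3*, a focal adhesion protein, 15 of 18 regions were in set 1, and 7 passed the FDR. The best of them (chromosome 4, 44694101 to 44694800) had a fold of 1.76 by the authors' deposited table (FDR = 0.00208). Deserts of 10 or more regions wholly in set 1 were those of *CITED2*, a coactivator (14 regions), *KLF6*, a Krüppel-like factor (11), *TOX3* to *SALL1* (11) and *DUSP10*, a phosphatase of stress kinases (10).

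At *TOX3*, a chromatin protein whose human neighbourhood is a known risk locus for breast cancer, and *SALL1*, a zinc finger factor, the 11 set 1 regions had fold changes from 2.15 to 5.2 by the authors' deposited table, and 7 passed the FDR. They lie 444 to 827 kb from *TOX3*, in the middle of a gap of 1350 kb. The lowest p, on chromosome 18 at 16897301 to 16897900, came with a fold of 3.28 by the authors' deposited table (FDR = 6.02e-08). No listed region of either set lay within 100 kb of *TOX3* or *SALL1* in this gap. In the *KLF6* desert the 11 fold changes ran from 1.61 to 5.31 by the authors' deposited table, 7 regions passed the FDR, and 17 further regions near its ends were all in set 1. In the *CITED2* desert 13 of 14 regions lie within 692 kb of *CITED2*, and 3 passed the FDR.

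**Figure D3:**
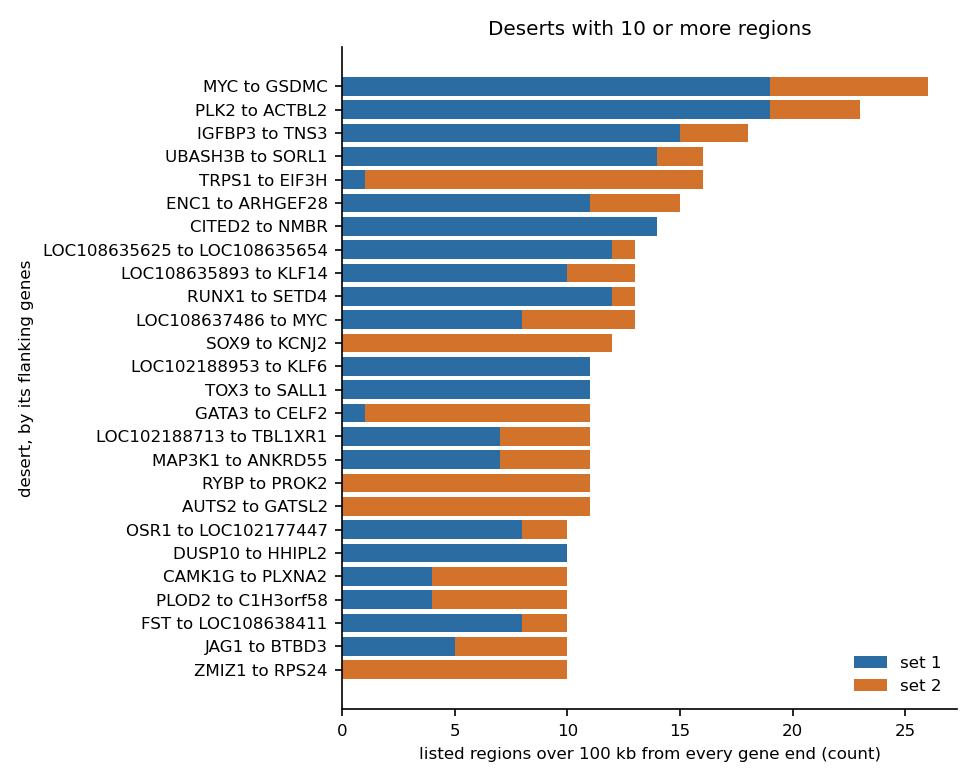
Number of listed regions over 100 kb from every protein-coding gene end in each of the 26 deserts with 10 or more, split into set 1 (blue) and set 2 (orange); deserts are named by their left and right genes. The *MYC* to *GSDMC* desert leads with 26 regions; 4 deserts hold set 1 alone and 4 hold set 2 alone.

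The deserts with the most set 2 regions flank *TRPS1*, *SOX9*, *RYBP* and *AUTS2*. Between *TRPS1*, a GATA-type repressor found in luminal mammary cells, and *EIF3H*, a translation factor, 15 of 16 regions were in set 2. None of these 16 passed an FDR of 0.05, although each had a p under 0.001; the best had a fold of 2.64 by the authors' deposited table (chromosome 14, 34069101 to 34069400, FDR = 0.0582). The count there thus rests on regions that pass only the listing limit.

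Between *SOX9*, a factor of cartilage and of mammary progenitor cells, and *KCNJ2*, a potassium channel gene, all 12 regions were in set 2. They are spread from 246 to 1580 kb from *SOX9*, with fold changes from 2.64 to 8.09 by the authors' deposited table, and 2 passed the FDR. The lowest p (chromosome 19, 58634801 to 58635300) came with 3.27 by the authors' deposited table (FDR = 0.00232). The widest of the 12 is a 1200 bp region on chromosome 19 at 58845001 to 58846200, with 8.09 by the authors' deposited table and an FDR of 0.144, so it missed the limit.

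Between *RYBP*, a Polycomb protein, and *PROK2*, a secreted prokineticin, all 11 regions were in set 2 and lie 254 to 406 kb from *RYBP*. Their fold changes ran from 2.78 to 5.94 by the authors' deposited table, and 2 passed the FDR. The best of these, at 29472401 to 29472800 on chromosome 22, had 4.74 by the authors' deposited table (FDR = 0.00109). The desert after *AUTS2*, a neurodevelopmental gene, held 11 set 2 regions with 1 past the FDR, and that after *ZMIZ1*, a coactivator, held 10 with 0 past it. Beside *GATA3*, the main transcription factor of luminal mammary cells, 10 of 11 regions were in set 2, and 4 passed the FDR. These 10 lie 340 to 1143 kb from *GATA3*, with fold changes from 2.72 to 8.16 by the authors' deposited table. The *COL22A1* desert held 8 regions, all in set 2, with fold changes from 2.24 to 22.4 by the authors' deposited table and 5 past the FDR.

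**Figure D4:**
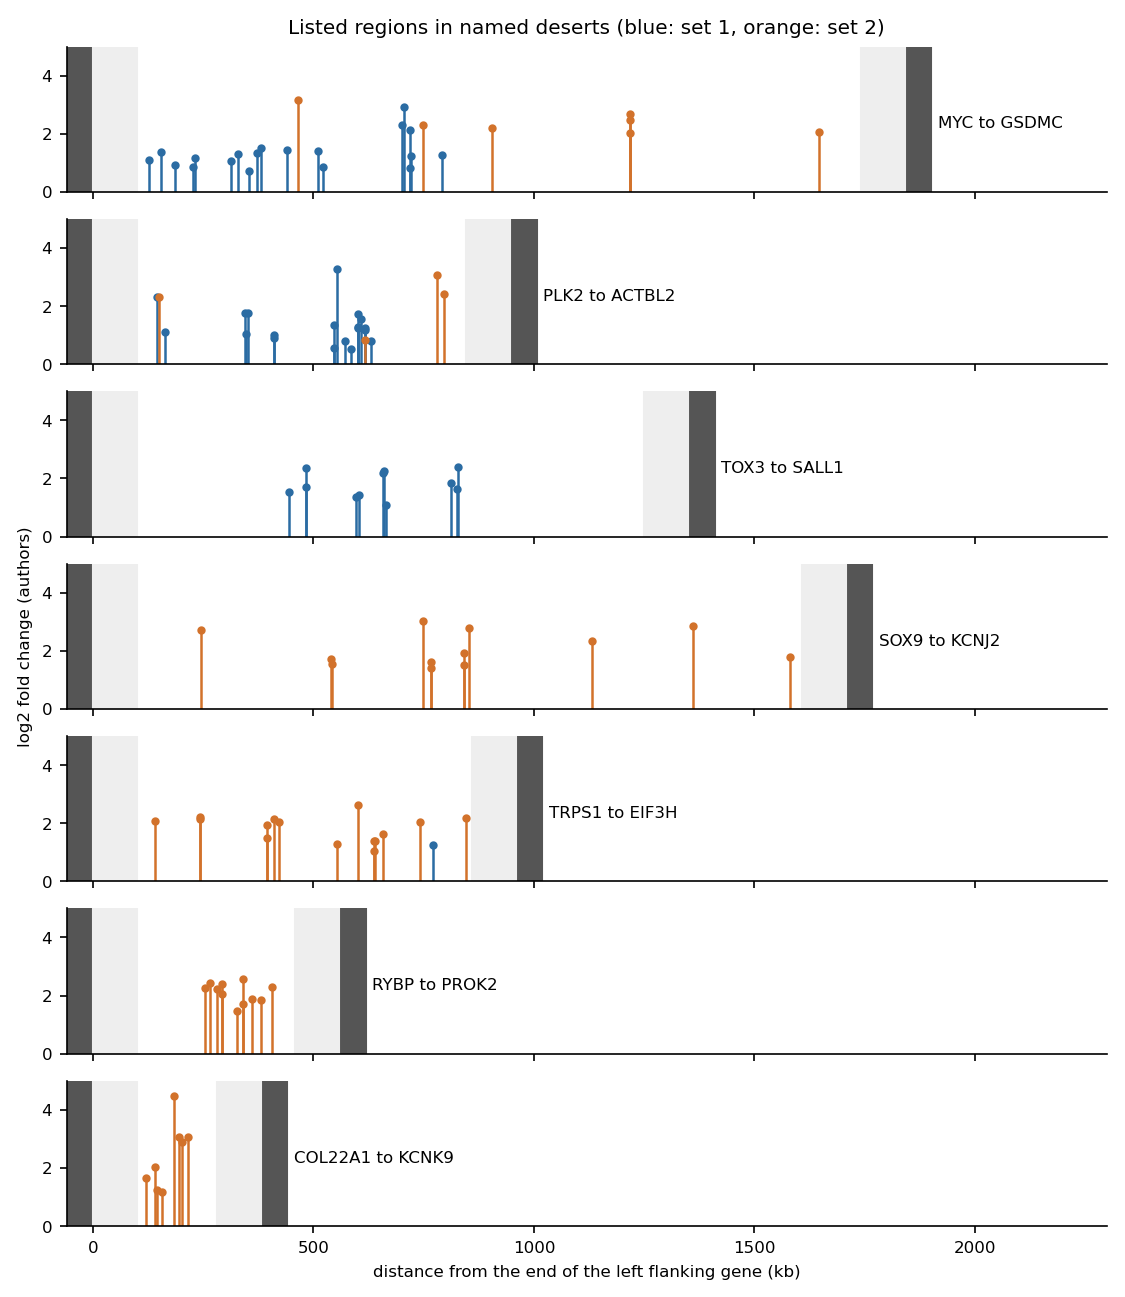
Each line is a listed region at its distance (kb) from the left flanking gene, with log2 of the authors' fold change as its height, in set 1 (blue) or set 2 (orange). Panels show 7 deserts; dark blocks mark the flanking genes (not to length) and light bands the 100 kb next to them, which the rule leaves out; *TOX3* to *SALL1* is all set 1, while *SOX9*, *RYBP* and *COL22A1* are all set 2.

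Neighbouring desert regions mostly belonged to the same set. Of 144 pairs of neighbours with centres within 1 kb, 139 (96.5%) were of 1 set; such close pairs may be parts of 1 site. The figure was 86.4% of 140 pairs at 1 to 5 kb, 78.3% of 309 pairs at 5 to 20 kb, 68.2% of 507 pairs at 20 to 100 kb and 62.4% of 338 pairs farther apart in the same desert. All other listed regions gave 97.0%, 87.7%, 77.6%, 67.7% and 55.9% in the same distance classes, but there most same-set pairs were in set 1. Those regions were paired along the whole chromosome, across genes and deserts. The comparison is therefore unlike, above all in the last class. With centres joined within 20 kb, 1129 regions (53.7%) stood alone and 974 formed 381 runs, of which 174 were wholly in set 1, 129 wholly in set 2 and 78 mixed.

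The run with the most regions had 13 over 83.9 kb in the *PLK2* desert, 12 of them in set 1. Next came 11 regions over 86 kb before *KLF14*, a Krüppel-like factor, 8 in set 1. Of 6 regions over 20.8 kb beside *OSR1*, all were in set 1 and 5 passed the FDR. The *HMGA2* desert, beside a gene for an architectural chromatin protein, had 6 set 1 regions over 21.2 kb, with 4 past the FDR. Among runs of set 2, 5 regions stood in 39.5 kb of the *RYBP* desert and 5 in 15.2 kb beside *BNC2*, a zinc finger gene.

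Margins of set 1 deserts held a smaller share of set 2 regions than margins of set 2 deserts. Among deserts with 3 or more regions, 61 held set 1 alone, 45 set 2 alone and 169 both. The margins, meaning the same gap within 100 kb of its genes, hold other regions that took no part in this division. In the margins of set 1 deserts 28 of 184 regions were in set 2 (15.2%, 95% Wilson interval 10.7% to 21.1%). For set 2 deserts this was 55 of 87 (63.2%, 52.7% to 72.6%), and for deserts with both sets 145 of 482 (30.1%, 26.2% to 34.3%). Margins of all 1419 deserts gave 35.4%. Single deserts could differ from this: the *ZMIZ1* desert, with set 2 alone, had 4 set 1 and 3 set 2 regions in its margins, and those of *SOX9*, *AUTS2* and *COL22A1* had 0. The intervals of the 3 classes do not overlap, but regions of 1 gap share their libraries and place and are not independent.

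Some desert regions lay at annotated genes of other types. In all 125 (5.94%) were inside or within 3 kb of a gene that the gene table does not class as protein-coding, 88 in set 1 and 37 in set 2. The share over all listed regions is not given here, so this one cannot be called high or low. Long noncoding RNA genes accounted for 73, of which 63 were inside the gene and 52 in set 1. Antigen receptor gene segments, which do encode protein but are classed apart, accounted for 3. The tRNA genes, which supply the adaptors of translation, accounted for 18, of which 15 were in set 1. The desert of chromosome 3 with the tRNA array, which holds 51 tRNA genes, gave 11 of these 18, all in set 1. Among microRNA genes, *MIR30A* alone had a region within 3 kb, in set 1, with a fold of 3.87 by the authors' deposited table and an FDR of 0.108. A set 1 region 4.50 kb from *MIR29A* in the *KLF14* desert had 3.00 by the authors' deposited table (chromosome 4, 25545701 to 25546200, FDR = 0.000661). Another 8.45 kb from *MIR100*, between *UBASH3B* and *SORL1*, had 3.39 by the authors' deposited table (chromosome 15, 49513301 to 49514200, FDR = 1.43e-05). These microRNA genes were named after their values were seen.

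The gene lists differed in how densely their deserts held regions. All deserts together held 2.99 regions per Mb, and 46.9% of them held any. For 144 deserts with a developmental transcription factor at an end, it was 87 (60.4%) and 4.52 per Mb, with 180 regions in set 1 and 158 in set 2. The 4 genes with the lowest p here were *TBX3*, *GATA6* (2.76-fold by the authors' deposited table, set 1), *KLF14* (3.48, set 1) and *TOX3*. For 37 deserts of luminal and mammary regulators it was 25 (67.6%) and 6.79 per Mb, with 56 regions in set 1 and 53 in set 2. Beside *FGFR2*, the fibroblast growth factor receptor of mammary bud formation, 6 of 6 regions were in set 2. The best of these had a fold of 3.38 by the authors' deposited table (chromosome 26, 10852301 to 10853200, FDR = 0.000346). Beside *RUNX1*, a factor of luminal cells, 12 of 13 regions were in set 1, and 3 of the 13 passed the FDR. The best lies 131 kb from the gene, with 2.81 by the authors' deposited table (FDR = 0.000217). Between *KLF12* and *KLF5*, an epithelial Krüppel-like factor, 8 of 9 were in set 1, with 4.11 for the best by the authors' deposited table (FDR = 0.000378). Of these 9 regions, 3 passed the FDR.

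Milk genes gave few values. Of 43 genes for milk protein, fat and lactose found in the gene table, 8 bound a desert, and 2 of these 8 deserts held a region. These 8 deserts span 2.02 Mb past the limit and held 4 regions (1.98 per Mb, against 2.99 for all deserts), a count too small to compare. Of all 19059 protein-coding gene symbols in that table, 2433 bound a desert. The desert of *LPIN1*, a phosphatidate phosphatase, held 1 region in set 1 and 2 in set 2, the best in set 1 (3.31-fold by the authors' deposited table, FDR = 0.00357). That of *GPAM*, an acyltransferase that starts triglyceride synthesis, held 1 region, in set 2, which missed the limit with an FDR of 0.159 by the authors' deposited table. A milk gene was the nearer flank for 0 of the 4 regions. The *GPAM* region lies 952 kb from *GPAM* and 156 kb from *ADRA2A*. The best *LPIN1* region lies 425 kb from *LPIN1* and 402 kb from *TRIB2*.

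Matrix and cytoskeleton genes bound 41 deserts, of which 24 held 99 regions (5.96 per Mb), 58 of them in set 2. Those with the lowest p were *HAS2*, *ARHGEF28* (set 1, 3.02 by the authors' deposited table), *DCN*, which encodes decorin (set 1, 2.78), and *FN1*, which encodes fibronectin (set 1, 2.04). Growth factor, Wnt, BMP and guidance genes bound 91 deserts with 3.11 regions per Mb, close to that of all deserts, 97 in set 1 and 80 in set 2. After *FGFR2*, their lowest p-values were beside *PDGFC* (set 1, 4.12 by the authors' deposited table), *EPHA7*, an ephrin receptor (set 2, 3.92), and *PTCH1*, the Hedgehog receptor (set 2, 1.84). Immune and endothelial genes bound 25 deserts, of which 17 (68%) held regions, at 4.64 per Mb and with 24 regions in each set. *CD83*, a marker of mature dendritic cells, had 3.49 in set 2 and *IL15*, a cytokine, 3.31 in set 1, both by the authors' deposited table. *PLXNA2*, a semaphorin receptor, had 3.71 in set 2 and *EDNRB*, the endothelin receptor, 2.08 in set 1 by the authors' deposited table.

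Deserts of synaptic and neural adhesion genes were larger than deserts as a whole and held fewer regions for their size. Deserts of ion channel and receptor genes also held fewer for their size, but were nearer in size to all deserts. The 103 deserts of synaptic and neural adhesion genes had a median gap of 1257 kb against 436 kb for all, and 41 of them (39.8%) held 129 regions, 0.890 per Mb. Set 2 took 82 of the 129 (63.6%), against 45.7% of all desert regions. At an FDR under 0.05 there were 19 (14.7%, against 25.1% of all desert regions), of which 6 were in set 2 (31.6%, against 19.9%). The lowest p-values stood beside *DPP10*, a subunit of potassium channels (set 1, 9.18-fold by the authors' deposited table), and *LRFN5*, a synaptic adhesion protein (set 2, 1.96). *LRRC4C* (2.48) and the cadherin gene *CDH4* (2.57) followed, both in set 1 by the authors' deposited table. The 70 deserts of ion channel and receptor genes had a median gap of 484 kb and held 1.82 regions per Mb, 28 in set 1 and 34 in set 2. The potassium channel gene *KCNV1* (set 1, 2.03 by the authors' deposited table), *KCNJ2* and *KCNJ16* (set 2, 2.11) were among those with the lowest p there. The *KCNJ2* region lies 1168 kb from *KCNJ2* and 539 kb from *SOX9*. Small deserts are denser than large ones in general, as given above, and the part of desert size or of distance from genes in these list densities was not tested. Some genes and deserts are in more than 1 list. A region is counted for a gene at either end of its desert, also where that gene is the farther one.

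Chromosomes differed in which set filled their deserts. Desert regions had a higher set 2 share than the other listed regions of the same chromosome on 28 of 29 chromosomes; on chromosome 4 the values were 34.4% and 34.9%. Set 2 outnumbered set 1 in the deserts of 9 chromosomes. On chromosome 19, 26 of 31 desert regions (83.9%, 95% Wilson interval 67.4% to 92.9%) were in set 2, against 12.3% of its other regions. Without the desert regions on both sides of *SOX9* it was 14 of 17 (82.4%). That step removed the 12 set 2 regions between *SOX9* and *KCNJ2*. It also removed set 1 regions on the other side of *SOX9*, so set 1 went from 5 to 3. Without the *SOX9* to *KCNJ2* desert alone the set 2 share is lower. On chromosome 25 set 2 took 12 of 13 (92.3%), of which 11 lie in the 1 desert after *AUTS2*. On chromosome 22 it was 32 of 42 (76.2%), of which 11 lie in the *RYBP* desert. On chromosome 23 it was 41 of 64 (64.1%) against 15.6% of its other regions. The lowest share was 33.3% of 81 regions on chromosome 7. Density in deserts ranged from 1.30 regions per Mb on chromosome 24 to 7.62 on chromosome 23, with a median of 2.99.

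**Figure D5:**
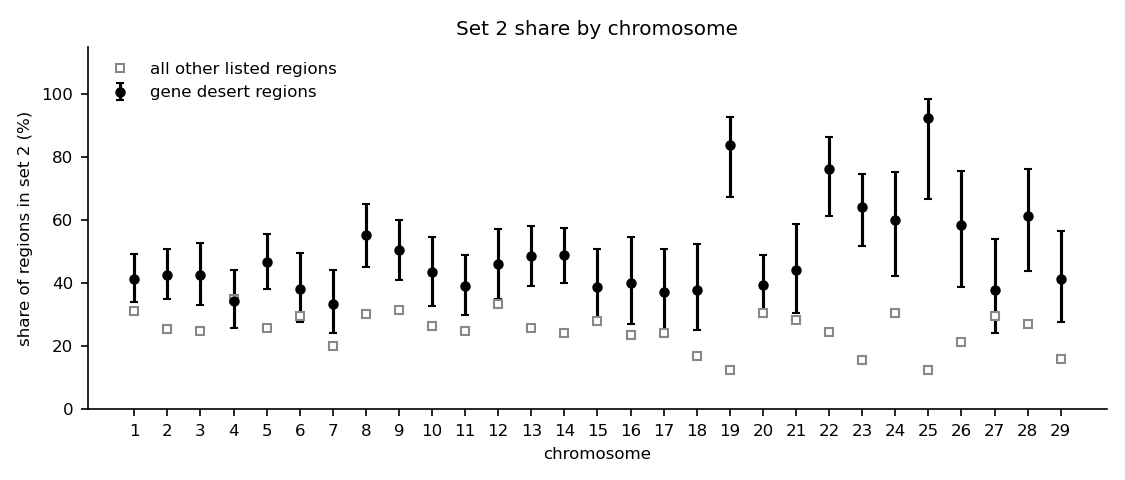
Set 2 share (%) of gene desert regions (black, with 95% Wilson intervals) and of all other listed regions (open grey squares) on each numbered chromosome. The desert share is the higher on 28 of 29 chromosomes; it is 92.3% of 13 regions on chromosome 25 and 83.9% of 31 on chromosome 19.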

How the data were processed

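ATAC-seq libraries (3 dry, 3 lactation) were built with Tn5 from a Nextera kit and read on the BGISEQ-500 platform, per the labels' protocols. Bowtie2 2.2.5 and MACS2 appear, without a stated role, per the submitters' processing notes. The genome build, the program that called differing regions, its filters and any Tn5 read shift were not given in the sources used here. The authors deposited 1 table of regions with a linear fold change (a ratio), a p-value, a Benjamini-Hochberg FDR (a q-value), a signal value and a width. The deposited signal score was not used. Width, in a unit other than these (bp), is listed from 200 bp in steps of 100, per the file headers and values.

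Regions were placed among 19063 protein-coding genes of the RefSeq table of assembly ARS1.2 with Python 3.11.15 and pandas 2.3.3. Accession numbers were read as chromosomes in order, and this was checked: on 29 of 29 chromosomes regions lay within 1000 bp of gene ends most often for their own chromosome. Distances in kb come from this table, and coordinates are the authors', counted from 1. The 736 regions off numbered chromosomes were left out. The placement code was tested on simulated data.

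The desert regions, gene lists and comparisons were chosen with earlier results of these data known. Named per set are the 5 lowest p, the 5 largest folds at an FDR under 0.05, the 3 farthest regions, the deserts and runs with most regions, and up to 4 genes with the lowest p per list, of which 1 is not reported here. Since the table holds no value per library, no test across libraries was run, and all shares and medians are descriptions. Alternatives changed the distance limit, p and FDR limits, genes, position, width, chromosomes and joining distance. No genome sequence was used, so the planned sequence content and motifs were not analysed here.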

Additional observations from a re-analysis of the deposited data

How the results depend on the processing

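No paired analysis was possible because the table holds no value per library; leaving out libraries was likewise not run. In 40 of 40 settings compared, the reported one included, desert regions had a higher set 2 share and higher median fold changes in both sets than the other listed regions. Most of these settings left out 1 chromosome each, so they share nearly all regions and are not separate support. Leaving out each chromosome in turn gave 1946 to 2090 regions, a set 2 share of 45.1% to 46.3%, median folds of 2.78 to 2.81 in set 1 and 4.09 to 4.13 in set 2, and widths of 300 bp. With a limit of 50 kb there were 3565 regions, 41.6% in set 2, at 4.02 per Mb. With 200 kb there were 1006 at 2.02 per Mb and a set 1 fold of 2.91, and with 500 kb 201 at 0.887 per Mb, a set 1 fold of 3.11 and 92.6% of runs of 1 set (79.5% as reported). At an FDR under 0.05 the values were 528 regions, 19.9% in set 2, a set 2 fold of 3.73, widths of 400 and 500 bp, 0.751 per Mb and 92.2% of runs of 1 set. At an FDR under 0.01 they were 272, 19.5%, 3.92, 500 and 600 bp, 0.387 per Mb and 95% of runs. With p under 1e-05 in both sets they were 392, 34.4%, 3.70, 500 and 500 bp, 0.558 per Mb and 93.5% of runs. Fewer regions enter these 3 by construction. If genes of every type bounded deserts, 1355 regions remained, and regions of 400 bp or more numbered 668, 43.0% in set 2, at 500 and 500 bp. Genes not classed as protein-coding, within 10 kb, took in 7.85% of regions. A developmental transcription factor was the single nearest gene of 10.0% of regions and a flank of 16.1%. Joining within 10 kb gave 85.9% of runs of 1 set and within 50 kb 69.6%. The cause of these moves was not tested. Depth per region is unknown.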

Other observations

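Many deserts, large ones included, held no listed region past the 100 kb limit. The longest was a gap of 5689 kb on chromosome 14 after *PHF3*, followed by one of 5572 kb on chromosome 24 between *PIK3C3*, a lipid kinase of autophagy, and *CELF4*, a neuronal RNA-binding protein. Next came the gap of 4263 kb between the cadherin genes *CDH6* and *CDH9* on chromosome 20 and that of 4176 kb between *IGFBP7* and *ADGRL3*, a latrophilin, on chromosome 6. The *IGFBP7* gap held 3 listed regions near its ends, 1 in set 1 and 2 in set 2, while the *CDH6* gap held 0. Of 84 gaps over 2000 kb, 47 held a listed region past the limit. The table cannot tell whether such a gap was open or closed chromatin, since only differing regions are listed.

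Among deserts with 3 or more regions the densest, between *MAP4K3*, a kinase gene, and *TMEM178A*, held 4 regions, all in set 1, in 33.8 kb past the limit (118 per Mb). Next, 13 regions stood in the 132 kb of desert before *KLF14* (98.3 per Mb), and 22 more regions lay near its ends, 21 of them in set 1. The desert beside *FST*, which encodes the activin inhibitor follistatin, held 10 regions in 138 kb, 8 in set 1. Before *VEGFA*, the endothelial growth factor, 6 of 7 regions were in set 1, and beside *IL6*, the interleukin, 5 of 5 were. These deserts were chosen after their values were seen.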
